A study of Mus musculus with 6 samples.

Results

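The subunits and feedback genes of the transcription factor NF-κB were followed in mouse tracheal epithelium after SO2 injury. The 10 genes were Nfkb1, Nfkb2, Rela and Relb, which encode subunits, Nfkbia, Nfkbie, Nfkbiz, Tnfaip3 and Bcl3, which encode feedback proteins, and Ikbke, which encodes a kinase. Every probe set that the array annotation gave to 1 of these symbols alone was taken. This gave 18 probe sets for 9 of the 10 genes, of 34945 probe sets for 18193 genes in all. Nfkb1, which encodes p105 and p50, was not analysed here.

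The epithelium at 48 h post injury (48 hpi) came from adult male C57Bl/6 mice that had breathed air with 500 ppm SO2 for 4 h, and the control epithelium from normal mice of the same strain. Each group had 3 samples, and each sample pooled cells from the tracheas of 4 mice, so that differences between single animals were not measured. In both groups the epithelium was peeled off after Dispase digestion, treated with trypsin and depleted of cells that carry CD45, the surface protein of leukocytes. The RNA was amplified and hybridized to Affymetrix Mouse Genome arrays, and the values are log2 expression levels after robust multi-chip analysis (RMA). Epithelial markers (Epcam, Cdh1, Krt8, Krt18 and Cldn4) were above background in both groups, with 5 of 5 detected.

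NF-κB is a family of dimers. In resting cells most dimers are held in the cytoplasm by inhibitors such as IκBα (Nfkbia). Signals from Toll-like, IL-1 and TNF receptors activate a kinase complex that marks the inhibitors for destruction, and the freed dimers switch on genes for chemokines, acute-phase proteins and their own inhibitors, which closes a feedback loop. Airway epithelium uses this pathway to respond to microbes and to tissue damage.

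Since feedback runs through DNA sites that NF-κB binds, known as κB sites, 130-base stretches just before the start site are shown for 3 feedback genes and 1 subunit gene that held a match, from RefSeq on GRCm38.p6. The capitals mark matches to the κB consensus, found on either strand, and overlapping matches are run together.
Nfkbia, chr12:55492648-55492777, minus strand: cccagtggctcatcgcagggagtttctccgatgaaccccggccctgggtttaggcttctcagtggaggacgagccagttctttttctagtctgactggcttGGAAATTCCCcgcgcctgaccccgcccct
Tnfaip3, chr10:19015411-19015540, minus strand: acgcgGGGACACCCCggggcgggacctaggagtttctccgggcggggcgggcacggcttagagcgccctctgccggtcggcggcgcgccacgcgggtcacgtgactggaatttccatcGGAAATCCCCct
Nfkbie, chr17:45555570-45555699, plus strand: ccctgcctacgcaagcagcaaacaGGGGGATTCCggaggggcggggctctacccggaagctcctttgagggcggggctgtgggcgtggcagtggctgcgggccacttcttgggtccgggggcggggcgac
Nfkb2, chr19:46304607-46304736, plus strand: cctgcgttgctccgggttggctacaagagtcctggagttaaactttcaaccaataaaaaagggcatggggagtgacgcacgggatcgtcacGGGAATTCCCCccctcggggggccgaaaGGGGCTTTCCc
In Nfkbia the match lay 29 to 20 bases before the start site, and read GGGAATTTCC on the opposite strand. Tnfaip3 had a match at 125 to 116 bases and another at 12 to 3 bases before its start. The Nfkbie match lay at 106 to 97 bases before the start. Nfkb2 had a palindromic match at 39 to 30 bases, a second match shifted by 1 base, and another at 11 to 2 bases before the start.

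Promoter windows running from 250 bases before to 50 bases after a start site were given for 7 of the 10 genes, some with several starts. A κB consensus match stood in 7 of their 10 windows and in the windows of 5 genes, namely Nfkbia, Nfkbie, Tnfaip3, Bcl3 and Nfkb2. The windows of Rela and Ikbke held none. Some windows of Nfkb2 overlapped, and the same GGGACTTTCC site was counted in both of the windows that held it. Of all 32851 mouse promoter windows of this length, 4.51% held a match, which is a share of windows and not of genes. The looser pattern GGGNNNNNCC, searched on both strands, stood in 50.8% of them. A match of letters is a description of the sequence, and binding was not measured here.

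The arrays were close in overall signal, but every 48 hpi array had a lower median than every control array. Array medians lay between 4.88 and 4.91 at 48 hpi and between 4.98 and 4.99 in control epithelium. The lowest correlation between arrays of the same group was 0.99. The groups were compared with limma over 45037 probe sets, and a probe set was called higher or lower at a Benjamini-Hochberg adjusted p below 0.05. Of all probe sets, 14.5% were called higher and 13.9% lower, and the groups did not overlap in 43.4%. The median change over all probe sets was -0.03 on the log2 scale. Receptors for odours, pheromones and trace amines, with 81 probe sets, were taken as genes that trachea does not express, and the 95th percentile of their mean levels in each group, 4.81 at 48 hpi and 4.93 in control, served as background. Because 3 pools stand against 3, an exact permutation test of a single value cannot give a two-sided p below 0.1.

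The inhibitor genes Nfkbia and Nfkbie, the nuclear IκB gene Nfkbiz, the subunit gene Relb and the kinase gene Ikbke were lower in injured epithelium, whereas Rela, Nfkb2, Tnfaip3 and Bcl3 did not pass the test. Of the 18 probe sets, 11 were called lower, 0 higher and 7 neither, beside 13.9% lower and 14.5% higher over all probe sets. The groups did not overlap in 13 of the 18, beside 43.4% of all probe sets. Of the 18, 16 were above background in both groups. Taking the brightest probe set of each gene, 5 of 9 genes were lower and 0 higher, where 16.1% of all genes were lower and 18.4% higher. The probe sets of these genes share pools and in part transcripts, and are not independent of each other.

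**Figure D1:**
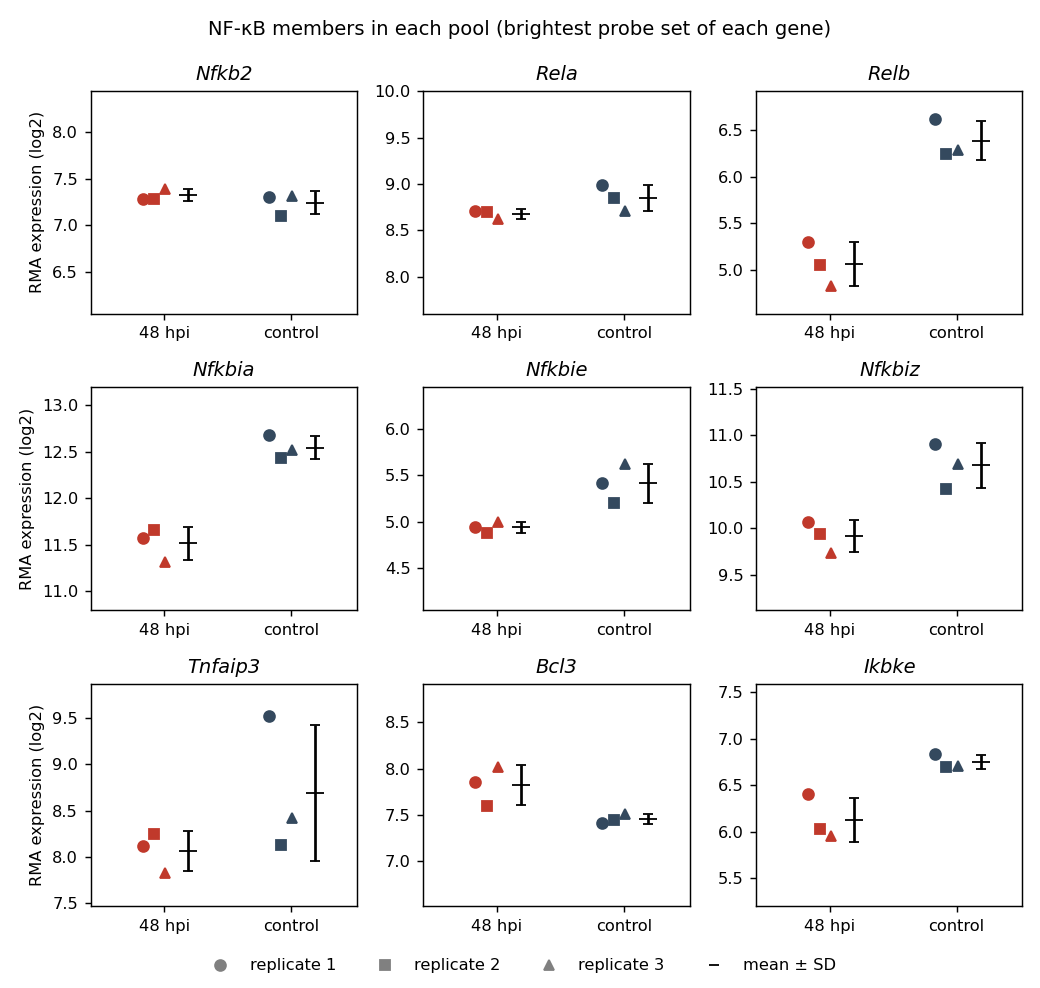
RMA expression (log2) in each pool for the brightest probe set of 9 genes, with 48 hpi pools in red at the left and control pools in dark blue at the right of each panel; symbols mark replicates, and the black bar gives the mean ± SD (n = 3). Each panel spans the same number of log2 units. The 2 groups stand apart for Relb, Nfkbia, Nfkbie, Nfkbiz, Bcl3 and Ikbke and overlap for Nfkb2, Rela and Tnfaip3.

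Among the subunits, Rela encodes p65, the main activating partner in the classical dimer. Its probe set read 8.71, 8.70 and 8.62 at 48 hpi and 8.99, 8.85 and 8.71 in control epithelium. The 48 hpi pools lay at the low end, and the highest of them overlapped the lowest control pool by 0.01. The change was -0.17 (SE 0.10, adjusted p = 0.257), with a 95% confidence interval of -0.40 to 0.06.

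Nfkb2 encodes p100, which is processed to p52 in the alternative pathway and as p100 can also hold dimers back. The brighter probe set (1425902_a_at) read 7.29, 7.28 and 7.39 at 48 hpi and 7.31, 7.10 and 7.31 in control, and the groups overlapped. Its change was 0.08 (SE 0.10, adjusted p = 0.589). The second probe set (1429128_x_at) had 6.97, 6.89 and 7.07 at 48 hpi and 7.26, 7.02 and 7.08 in control, a change of -0.14 (SE 0.10, adjusted p = 0.352). The 2 probe sets thus differed in sign and neither passed the test. Their intervals ran from -0.14 to 0.30 and from -0.37 to 0.09.

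Relb, the partner of p52 in the alternative pathway, differed most among the subunits. Its levels were 5.29, 5.05 and 4.82 at 48 hpi and 6.63, 6.25 and 6.29 in control epithelium. Every 48 hpi pool lay below every control pool, with a gap of 0.95 between the groups. The log2 change was -1.33 (SE 0.15, adjusted p = 0.00056), which is a 2.52-fold lower level with an interval of 1.98 to 3.20. At 48 hpi, pool 3 was close to the background of 4.81.

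The 5 Nfkbia probe sets, for the inhibitor IκBα, were all called lower. The brightest (1420088_at) read 11.57, 11.65 and 11.31 at 48 hpi and 12.67, 12.43 and 12.52 in control. The groups stood 0.78 apart, and the level was 2.04-fold lower (interval 1.70 to 2.47, log2 change -1.03, SE 0.12, adjusted p = 0.000582). The largest of the 5 changes was that of 1448306_at, with 9.95, 9.76 and 9.20 at 48 hpi and 11.40, 10.92 and 11.01 in control. It amounted to -1.47 (SE 0.21, adjusted p = 0.00142), and the smallest, that of 1420089_at, to -0.84 (SE 0.12, adjusted p = 0.0014). The other two, 1438157_s_at and 1449731_s_at, changed by -1.12 (SE 0.14) and -1.15 (SE 0.14). In each of the 5 probe sets all 48 hpi pools were below all control pools.

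Nfkbie encodes IκBε, a second cytoplasmic inhibitor that is itself induced by NF-κB. Its brighter probe set (1458299_s_at) read 4.94, 4.87 and 5.00 at 48 hpi and 5.42, 5.20 and 5.62 in control. The groups did not overlap, but the 48 hpi level stood little above the background of 4.81. The change was -0.48 (SE 0.12, adjusted p = 0.0191), a 1.39-fold lower level. The other probe set (1431843_a_at) was within background in both groups, with a change of -0.33 (SE 0.12, adjusted p = 0.0749). The call on 1458299_s_at was lost without 48 hpi replicate 2 or control replicate 3, and over all alternatives its adjusted p ran between 0.0123 and 0.682.

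Tnfaip3 encodes A20, a ubiquitin-editing enzyme that shuts down signalling above the kinase complex. Its brighter probe set (1433699_at) read 8.12, 8.25 and 7.82 at 48 hpi and 9.51, 8.13 and 8.42 in control. The groups overlapped, and control replicate 1 stood far above the other controls. The change was -0.63 (SE 0.32, adjusted p = 0.191), and without control replicate 1 it was -0.22 (adjusted p = 0.377, range over all alternatives 0.0826 to 0.391). The other probe set (1450829_at) was within background in both groups, with a change of -0.06 (adjusted p = 0.81).

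Nfkbiz and Bcl3 encode nuclear IκB proteins, which bind DNA-bound p50 or p52 dimers and can activate as well as repress. The 2 genes differed in the sign of their change. For Nfkbiz, the brightest probe set (1417483_at) read 10.07, 9.94 and 9.73 at 48 hpi and 10.91, 10.43 and 10.69 in control, with no overlap. It was 1.70-fold lower, with a log2 change of -0.76 (SE 0.14, adjusted p = 0.00557). The other probe sets, 1448728_a_at and 1457404_at, were lower by the same test, with changes of -0.76 (SE 0.14, adjusted p = 0.00492) and -0.84 (SE 0.21, adjusted p = 0.0176). The last was the least stable, since its call was lost when 48 hpi replicate 1 or 2 or control replicate 2 or 3 was left out.

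Bcl3 read 7.86, 7.59 and 8.02 at 48 hpi and 7.41, 7.45 and 7.52 in control. All 48 hpi pools were above all controls, by a gap of 0.08. The change of 0.36 (SE 0.12, interval 0.09 to 0.64) did not pass the test, with an adjusted p of 0.0538. The adjusted p ran from 0.018 to 0.147 over the alternatives, and 7 of 19 of them called it higher. The probe set therefore lay close to the threshold.

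Ikbke encodes IKKε, a kinase related to the IκB kinases that is best known for its part in interferon induction. It read 6.40, 6.03 and 5.95 at 48 hpi and 6.84, 6.70 and 6.71 in control. No pool of one group reached the other. The level was 1.54-fold lower, with a log2 change of -0.62 (SE 0.13, adjusted p = 0.00859).

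**Figure D2:**
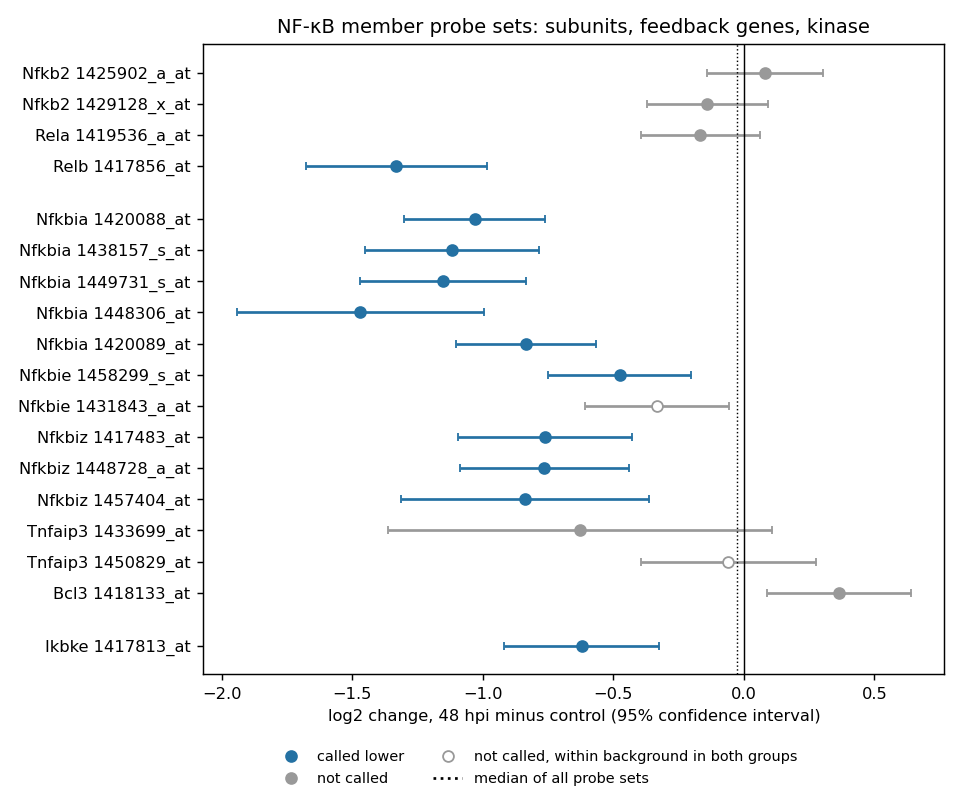
Log2 change, 48 hpi minus control, of each of the 18 probe sets with its 95% confidence interval, in rows for subunits (top), feedback genes and the kinase (bottom). Blue points were called lower, grey points were not called, open points were within background in both groups, and the dotted line marks the median of all probe sets, -0.03. The intervals of Relb, of the 5 Nfkbia probe sets and of the 3 Nfkbiz probe sets lie left of 0, those of Nfkb2 and Rela cross it, and that of Bcl3 lies right of it.

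Set side by side, the subunits had 1 of 4 probe sets lower (Relb) with a median change of -0.15. The feedback genes had 9 of 13 lower with a median of -0.76, where 13.9% of all probe sets were lower. The 13 include 5 probe sets of Nfkbia and 3 of Nfkbiz, all of them lower, which weigh on this count and median. With 1 probe set per gene, 1 of 3 subunits and 3 of 5 feedback genes were lower, beside 16.1% of all genes. The medians were then -0.17 and -0.63. The mean over genes gave another picture, because Relb carried the subunit mean. Relative to the control mean, the 3 subunits averaged -0.39, -0.48 and -0.55 in the 48 hpi pools, and the 5 feedback genes averaged -0.45, -0.49 and -0.58. The medians of the 2 classes differed while their means were close, and no test was made between the classes.

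Each gene was also set against Rela on the same array, which leaves out any scaling of whole arrays. The values are log2 differences from Rela, with the control mean at 0, and describe an unequal change only. Rela itself changed by -0.17, which was not called, and each mean difference lies above the gene's own change by this amount. For Bcl3 the own change was 0.36. Relb gave -0.96, -1.19 and -1.34 at 48 hpi and 0.10, -0.14 and 0.04 in control, which is 2.24-fold lower relative to Rela. Nfkbia gave -0.84, -0.74 and -1.004 at 48 hpi and -0.01, -0.11 and 0.12 in control (1.82-fold lower). Bcl3 ran the other way, with 0.53, 0.28 and 0.79 at 48 hpi and -0.19, -0.01 and 0.19 in control (1.45-fold higher). These 3 genes kept the groups apart, as did Nfkbiz (mean -0.59) and Ikbke (mean -0.45). Nfkb2 (mean 0.25), Nfkbie (mean -0.31) and Tnfaip3 (mean -0.46) had overlapping groups on this scale.

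**Figure D3:**
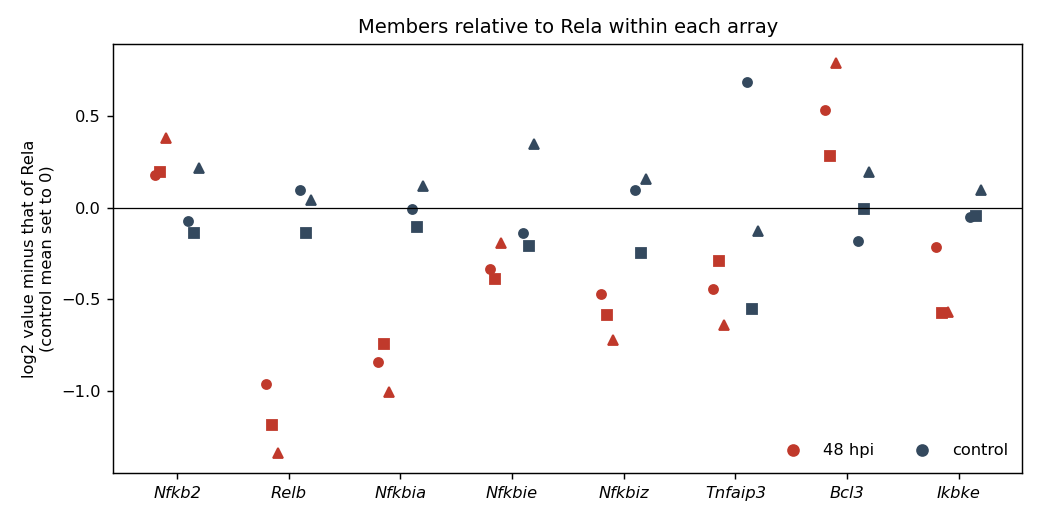
Log2 value of 8 genes minus that of Rela on the same array, with the mean of the control pools set to 0; each symbol is 1 pool, 48 hpi in red at the left and control in dark blue at the right of each gene. The groups are apart for Relb, Nfkbia, Nfkbiz and Ikbke, which lie lower at 48 hpi, and for Bcl3, which lies higher, and overlap for the other 3.

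The scaling of the arrays bears on the counts. The spiked hybridization controls averaged 11.14, 11.00 and 10.90 at 48 hpi and 11.68, 11.15 and 11.23 in control. When the arrays were shifted to make these equal, the median change over all probe sets moved to 0.32, and 8064 probe sets were higher and 1480 lower, against 6512 and 6267 with the deposited values. A shift to a common array median gave 8068 higher and 4522 lower. Relb and 4 of the 5 Nfkbia probe sets were lower under both. With equal hybridization controls the calls on Nfkbiz (1417483_at, adjusted p = 0.201), Nfkbie (1458299_s_at, adjusted p = 0.682) and Ikbke (adjusted p = 0.382) were lost, and Bcl3 was called higher. The uncalled changes of Rela, Nfkb2 1429128_x_at, Nfkbie 1431843_a_at and Tnfaip3 1450829_at turned positive.

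Other genes of the pathway moved in both directions. Of 106 genes from 6 lists, 9 were higher and 29 lower, with a median change of -0.08, where 18.4% of all genes were higher and 16.1% lower and the median of all genes was -0.02. Without control replicate 1 the number lower was 19. None of the 3 further Rel and IκB genes (Rel, Nfkbib and Nfkbid) was called by limma, nor did any of them have an unadjusted p below 0.05. Rel, the c-Rel subunit, read 6.25, 5.93 and 5.90 at 48 hpi and 6.55, 6.09 and 5.92 in control.

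**Figure D4:**
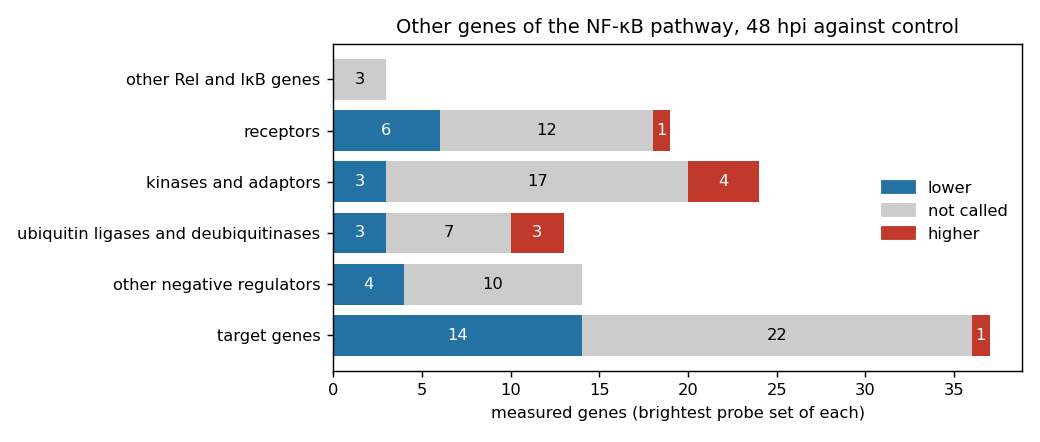
Number of measured genes called lower (blue), not called (grey) and called higher (red) at 48 hpi relative to control in 6 lists of pathway genes, by the brightest probe set of each gene. Receptors, other negative regulators and target genes have more genes lower than higher, and kinases and adaptors have 4 higher and 3 lower.

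Of 19 receptors measured, 6 were lower and 1 was higher, beside 16.1% lower and 18.4% higher over all genes. Il18r1, the IL-18 receptor chain, read 8.80, 8.96 and 9.08 at 48 hpi and 9.72, 9.68 and 9.72 in control (change -0.76, adjusted p = 0.000934). Il1rap, the shared chain of the IL-1 receptors, changed by -0.70 (adjusted p = 0.0017). Tlr4 and Tlr5, receptors for lipopolysaccharide and flagellin, changed by -0.67 (adjusted p = 0.00709) and -0.56 (adjusted p = 0.0194). Tnfrsf12a, the receptor for TWEAK, which signals to the alternative pathway, was higher. It read 9.16, 8.96 and 9.42 at 48 hpi and 8.71, 7.94 and 7.73 in control (change 1.06, adjusted p = 0.0138), and was not called without control replicate 2. Tlr5 was not called without 48 hpi replicate 2 or control replicate 1 or 2. Without control replicate 1, 3 receptors were lower, and with equal hybridization controls 0 were.

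Of 24 kinases and adaptors, 4 were higher and 3 lower, beside 18.4% higher and 16.1% lower over all genes. Their median change was 0.10. Fadd, Tradd and Traf2, adaptors below the TNF receptor family, were higher by 0.56, 0.55 and 0.47 on the log2 scale (adjusted p = 0.00416, 0.00867 and 0.0179). Another Fadd probe set (1446499_at), above background in both groups, was not called, with a change of 0.05 (adjusted p = 0.765). Without control replicate 2 or 3, 2 genes were higher and Traf2 was not among them, and under a common median 7 were higher. Irak2, an IL-1 receptor kinase, changed by -0.83 (adjusted p = 0.00119). Ikbkg encodes NEMO, the regulatory part of the kinase complex. Its brightest probe set (1454690_at) read 7.33, 7.46 and 7.19 at 48 hpi and 8.46, 8.56 and 8.64 in control, a change of -1.23 (adjusted p = 0.000163). The other 5 Ikbkg probe sets showed less, since 1435646_at changed by -0.48 (adjusted p = 0.0189) and 4 were not called, with changes from -0.29 to -0.09. The probe sets of this gene therefore disagree on the size of the change.

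Of 13 ubiquitin ligases, conjugating factors and deubiquitinases, 3 were higher and 3 lower, beside 18.4% higher and 16.1% lower over all genes. Ube2n and Ube2v1, which together build the K63-linked chains of this pathway, were higher by 0.68 (adjusted p = 0.00908) and 0.36 (adjusted p = 0.0259), and Otulin, which removes linear chains, by 0.44 (adjusted p = 0.00859). Another Ube2n probe set (1435384_at), above background in both groups, was not called, with a change of -0.18 (adjusted p = 0.538). Itch, a ligase that works with A20, changed by -0.39 (adjusted p = 0.0189), and Birc3 (cIAP2) by -0.48 (adjusted p = 0.0258). The calls on Itch, Birc3 and Ube2v1 depended on single arrays, whereas Ube2n and Otulin were called whichever array was left out. Only 1 gene was lower without 48 hpi replicate 2 or 3 or control replicate 1 or 2, and 0 under a common median or equal hybridization controls. Itch was not called without control replicate 1 or 2, and Birc3 and Ube2v1 were not without 48 hpi replicate 2 or 3 or control replicate 3.

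Of 14 other negative regulators, 4 were lower and 0 higher, beside 16.1% lower and 18.4% higher over all genes. Their median change was -0.22. Socs3, which limits cytokine signalling through STAT3, read 10.53, 10.18 and 9.25 at 48 hpi and 11.60, 11.51 and 11.38 in control. Its change was -1.51 (SE 0.29, adjusted p = 0.00552). Zfp36, which destabilizes cytokine mRNAs, changed by -0.98 (adjusted p = 0.0116), Dusp1, a MAP kinase phosphatase, by -0.72 (adjusted p = 0.0039) and Rnf11, a partner of A20, by -0.50 (adjusted p = 0.00313). With equal hybridization controls 2 were lower.

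Of 37 target genes, 14 were lower and 1 was higher, beside 16.1% lower and 18.4% higher over all genes. Their median change was -0.21, and 12 were within background in both groups. Ccl20, a chemokine for CCR6-bearing cells, read 6.33, 5.69 and 5.99 at 48 hpi and 7.73, 7.66 and 7.41 in control. It was 3.02-fold lower (change -1.60, SE 0.17, adjusted p = 0.000406). Cfb, complement factor B, changed by -2.15 (SE 0.37, adjusted p = 0.00372), the transcription factor Irf1 by -0.77 (adjusted p = 0.00159) and the proteoglycan Sdc4 by -0.57 (adjusted p = 0.00364). Csf2, the growth factor GM-CSF, was the gene that was higher. It read 5.69, 5.23 and 5.37 at 48 hpi and 4.32, 3.91 and 4.22 in control, where it was within background. Against the control background of 4.93 it was at least 1.41-fold higher (adjusted p = 0.000699 in the fit). With equal hybridization controls 4 target genes were lower and 2 higher, and without control replicate 1 the counts were 10 and 2, and without 48 hpi replicate 2 or 3 there were 9 lower. These genes have inputs other than NF-κB, and activity of the factor was not measured.

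Markers of several cell types differed between the groups, where 18.4% of all genes were higher and 16.1% lower. In these bulk samples fewer cells of a type and less RNA per cell cannot be told apart. Of 15 leukocyte markers measured, 9 were within background in both groups, among them Ptprc, which encodes CD45, at 2.83 at 48 hpi and 3.04 in control. Their summed level, on the log2 scale, ranged from 9.64 to 12.46 at 48 hpi and from 13.65 to 13.92 in control. Lyz2 made up most of this sum in the controls, so that the sum does not describe the list as a whole. It read 12.35, 10.99 and 8.57 at 48 hpi and 13.85, 13.60 and 13.87 in control. The median change of the 15 markers was -0.05. Lyz2 and Csf1r were called lower and Coro1a, within background in both groups, higher, while 7 of the 15 changes were positive. For Csf1r this held for its brightest probe set. Its probe sets 1419873_s_at and 1423593_a_at, above background in both groups, were not called, with changes of -0.30 (adjusted p = 0.173) and 0.01 (adjusted p = 0.954). The call on Lyz2 was lost without any one of the controls, and that on Coro1a without any single array but 48 hpi replicate 2. Of 6 secretory cell markers 4 were lower, with a summed level of 15.57 to 16.35 at 48 hpi and 16.76 to 16.79 in control, but 2 were lower without control replicate 1 and 1 without control replicate 2 or 3. Of 6 ciliated cell markers 5 were lower, and 3 without 48 hpi replicate 1 or 3 or control replicate 2 or 3. Their summed levels overlapped, with 7.94 to 9.01 at 48 hpi and 8.68 to 9.74 in control. Taken singly, 5 of the 6 did not overlap, beside 43.4% of all probe sets. Foxj1, the regulator of ciliated cell fate, was the brightest of the 6 and weighed most in the sum. It averaged 7.80 at 48 hpi and 7.84 in control, a change of -0.04 (adjusted p = 0.96). Dnah5 was within background in both groups. Among 5 basal cell markers Krt14 was higher by 3.18 and Krt5 by 0.69, and Ngfr and Pdpn were lower, and 1 basal marker was lower without 48 hpi replicate 1 or 2 or control replicate 2 or 3. Of 6 fibroblast markers 1 was lower (Dcn) and 0 higher, but 2 were higher without 48 hpi replicate 1 and 4 with equal hybridization controls. The median change of the fibroblast markers was 0.37, with 5 of the 6 changes positive, and 3 were within background in both groups. By limma 0 of 5 endothelial markers were called, none with an unadjusted p below 0.05. The part of these shifts in the changes of the NF-κB genes was not tested.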

How the data were processed

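RNA of 3 pools of 48 hpi and 3 pools of control epithelium was analysed. Per the labels and methods, the authors deposited log2 values, normalized by RMA in Partek 6.5, and the submitters' processing notes also name Affymetrix Expression Console 1.1. RMA makes the arrays alike in distribution, so that a global shift would not be seen. The values come without detection calls. The mesenchymal samples were not analysed here, and the two-way analysis of variance of the methods was therefore not repeated.

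Of 45101 probe sets, 64 array controls were left out. The others were fitted in R 4.3.3 by limma 3.58.1 (default lmFit and eBayes, no block), 48 hpi minus control, with Benjamini-Hochberg adjustment over all 45037. Symbols came from the array annotation (34945 probe sets with 1 symbol, 932 with several, 9160 with none). Lists were counted by the probe set with the highest mean of each gene. Relative values to Rela, promoter matches and plots (matplotlib 3.10.9) were made in Python 3.11.15. The test was checked on simulated data. The number of arrays limits the precision.

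The members and lists were chosen with earlier results of these data known. Named list genes are the called genes with the smallest p, up to 5 a list (all in lists of 8 or fewer), with markers named where needed. Promoter windows are from RefSeq on GRCm38.p6. Alternatives were other spread estimates, the methods' t-test, normalizations, filters, probe set choices, a replicate block, array weights, leaving out each array and a threshold of 0.01. None was added later.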

Additional observations from a re-analysis of the deposited data

How the results depend on the processing

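Of 327 values of the 18 probe sets under 19 alternatives, 300 kept their direction and side of the threshold or stayed uncalled, 19 lost a call, 8 gained one and 0 called values changed sign. Relb and 4 of 5 Nfkbia probe sets were lower under every alternative run that kept their probe set. The number of the 18 lower (11) was 6 with the methods' t-test after adjustment, 5 with equal hybridization controls and 5 with 1 probe set per gene, which leaves fewer probe sets to count. For the feedback genes (9) these numbers were 5, 4 and 3. Bcl3 was the 1 probe set called higher (0 with the deposited values) with the methods' unadjusted t-test, a common median, equal hybridization controls, dim probe sets left out, 1 probe set per gene, the replicate block or without 48 hpi replicate 2. With single arrays left out, the number higher ran from 0 to 1 both in all members and in feedback genes. Of the pathway genes, 9 were higher, but 4 and 14 with the methods' t-test adjusted and unadjusted, and 5 at a threshold of 0.01. The 29 lower were 13 with the adjusted t-test, 7 with equal hybridization controls and 14 at 0.01, and 19 to 24 with single arrays left out. The causes were not tested.

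Over all probe sets the adjusted t-test called 4711 higher and 2948 lower, and the threshold of 0.01 called 4409 and 2971. With the replicate block, 6533 were higher and 7019 lower, and Nfkbie 1431843_a_at was also called lower. The replicate numbers were not taken as pairs, since the labels do not say that a number marks a pair. The deviations of same-numbered arrays correlated at 0.204, 0.0824 and 0.193, and those of differently numbered arrays at -0.21 to -0.03. Every array correlated best with its own number, which is a hint from the data only. Deviations from a group mean cancel within the group, so the negative values are not separate evidence. Without depth or detection calls, levels near background, as for Relb and Nfkbie at 48 hpi, limit the size of change that can be measured.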

Other observations

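Control replicate 1 was the highest control pool in 14 of the 18 NF-κB probe sets and in 28 of 37 target genes (75.7%), where it was the highest in 38.9% of all probe sets. The 18 include 5 probe sets of Nfkbia, and the target genes were counted by their brightest probe set. The share over all probe sets also covers those within background. This array had the highest hybridization controls of the control arrays too, 11.68 beside 11.15 and 11.23, and a link was not tested. Control replicate 1 stood out for 2 neutrophil chemokines, chosen after their values were seen. Cxcl1 read 7.43, 7.63 and 7.82 at 48 hpi and 9.47, 8.35 and 8.48 in control, and Cxcl2 read 4.80, 5.03 and 5.03 at 48 hpi and 6.72, 5.03 and 5.03 in control. Tnfaip3 was also highest in this pool, with control replicate 1 at 9.51 and the other controls at 8.13 and 8.42. Among the injured pools, 48 hpi replicate 3 was the lowest in 12 of the 18 NF-κB probe sets (66.7%). It was the lowest in 37.8% of the target genes, close to the 35.4% over all probe sets. Lyz2 and Cfb were lowest in this pool as well, at 8.57 and 4.65.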
